A study of Mus musculus with 13 samples.

Results

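The 6 Iroquois homeobox genes, Irx1 to Irx6, were followed across 13 RNA-seq libraries of mouse small intestine. They were taken by symbol from count tables of 24054 genes, of which 19479 had at least 1 count in any library, and all 6 Iroquois genes were among these. The family was chosen by its organoid counts in these data: Irx5 had no count in wild-type (WT) organoids and was present after loss of Apc. The organoid values of the family with and without Apc are therefore given as a description, with no test.

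Iroquois proteins are transcription factors of the TALE class, whose homeodomain carries an enlarged loop and which includes the Meis, Pbx and Tgif factors. In mammals the genes lie in a pair of clusters, IrxA with Irx1, Irx2 and Irx4 and IrxB with Irx3, Irx5 and Irx6. They are best known from the patterning of the heart, limb, retina and neural tube. Apc belongs to the complex that degrades beta-catenin, so that its loss leaves Wnt signalling active, and in human colorectal adenoma cells IRX3 and IRX5 have been described as restraining TGF-beta signalling.

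The libraries formed 6 groups from adult mice, and all mice, WT included, had received 2 doses of 1 mg tamoxifen. Sec-Cre Apc-null organoids (2 libraries) came from Atoh1CreERT2;Apcfl/fl;Rosa26tdTomato mice, in which the driver of the secretory lineage controls Cre. ISC-Cre Apc-null organoids (2 libraries) came from Lgr5eGFP-CreERT2;Apcfl/fl;Rosa26tdTomato mice, in which the driver of crypt-base intestinal stem cells (ISCs) controls Cre. WT organoids (2 libraries) had the genotype WT with no further allele given. Organoids, which are epithelial cultures grown from crypts and were collected whole, had a time of 10 days that is counted to plating in the sample labels and from plating in the study design, so the culture age is unclear. ISCs isolated by flow cytometry made up the other groups. Duodenal ISC-Cre Apc-null ISCs (3 libraries, 14 days after induction) had the ISC-Cre genotype above. Ileal Sec-Cre Apc-null ISCs (2 libraries, 21 days) were Atoh1CreERT2;Apcfl/fl;Lgr5DTR-GFP;Rosa26tdTomato, and ileal WT ISCs (2 libraries, 21 days) were Apcfl/fl;Lgr5DTR-GFP;Rosa26tdTomato, which carries floxed Apc and no Cre. The labels do not say whether replicates came from different animals or cultures, and the spread behind each p-value may be partly technical.

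Gene counts came to 13631423 to 22182702 per organoid library, 21580486 to 27336750 per duodenal ISC library and 11524335 to 45516228 per ileal ISC library. The 2 Sec-Cre ileal ISC libraries stood apart. Unmapped reads were 35.8% and 57.0% of their reads, against 5.01% to 13.9% in WT ileal ISCs. Enterocyte markers took 1.58% and 1.98% of gene counts in them, against 0.0628% and 0.0650% in WT ileal ISCs, and stem cell markers 0.0454% and 0.206%, against 0.573% and 0.618%. Paneth cell markers took 24.7% of counts in Sec-Cre replicate 1 and 0.840% in replicate 2, against 2.13% and 1.97% in WT ileal ISCs. Levels are given as CPM, counts scaled by TMM library sizes, which for Sec-Cre ileal replicate 1 lie well above counts scaled by the total alone: its 5 Irx5 reads are 1.23 CPM, or 0.434 by the total. Axin2, a direct Wnt target, averaged 805 CPM in Sec-Cre organoids and 800 CPM in ISC-Cre organoids, against 307 CPM in WT organoids. It averaged 728 CPM in duodenal Apc-null ISCs and 58.4 CPM in Sec-Cre ileal ISCs, against 307 CPM in WT ileal ISCs. The Apc count sums all exons and the labels do not give the floxed ones, so it does not check the deletion; Apc averaged 195 CPM in Sec-Cre organoids and 216 CPM in ISC-Cre organoids, against 148 CPM in WT organoids. In sorted ISCs, Apc averaged 286 CPM in duodenal Apc-null cells and 77.7 CPM in Sec-Cre ileal cells, against 119 CPM in WT ileal cells. Reads on the second strand made up 98.5% to 98.9% of gene reads in the 3 duodenal libraries, which are thus strand-specific, against 48.4% to 51.1% elsewhere. Region is as given by each sample's own labels, which put the organoids down as ileal; an extraction text common to all samples names the duodenum, so the sources conflict on it. Labelled region, Cre driver, Lgr5 allele (Lgr5eGFP-CreERT2 or Lgr5DTR-GFP), time, dissociation and strandedness all separate the duodenal from the ileal ISCs and cannot be told apart.

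The coding sequence of the recognition helix, the part of the homeodomain that contacts DNA, is shown to let the members be compared and to show how alike genes are that were counted as separate. In GENCODE vM21 transcripts (GRCm38) the stretch of 39 bases codes for the same 13 residues in all 6 genes. Capitals mark bases that differ from Irx5.
Irx3: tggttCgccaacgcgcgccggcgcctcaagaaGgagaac
Irx5: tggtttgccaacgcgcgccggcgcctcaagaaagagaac
Irx6: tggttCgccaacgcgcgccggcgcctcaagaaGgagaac
Irx1: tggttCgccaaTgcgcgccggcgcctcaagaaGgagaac
Irx2: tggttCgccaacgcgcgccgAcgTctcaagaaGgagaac
Irx4: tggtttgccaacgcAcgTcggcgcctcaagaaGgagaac
The stretch differed from Irx5 at 2 bases in Irx3 and Irx6, 3 in Irx1 and Irx4, and 4 in Irx2. Over the 180 bases of the homeobox that end with this stretch, identity to Irx5 was 90.6% for Irx2, 88.9% for Irx3 and Irx6, 86.7% for Irx4 and 86.1% for Irx1. Few 31-base words of the whole transcripts occurred in another gene, from 0.154% for Irx1 to 6.08% for Irx3, with 2.03% for Irx5.

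Irx5, which in the mouse shapes cardiac repolarisation and retinal bipolar cells, was the most abundant member per kilobase in Apc-null organoids and had no read in any WT library. It lies at chr8:92357625-92376286 on the plus strand (GRCm38). Irx5 reached 92.7 and 42.1 CPM in Sec-Cre organoids (2195 and 1066 counts) and 111 and 85.9 CPM in ISC-Cre organoids (2784 and 1804 counts), against 0 counts in both WT organoid libraries. All 4 Apc-null organoid libraries stood above both WT libraries. Set against a floor of 3 counts over the WT group, Irx5 was at least 825-fold higher in Sec-Cre organoids and at least 1207-fold higher in ISC-Cre organoids. Of 8846 genes without a count in either WT organoid library, 171 (1.93%) had at least 1 CPM in every Apc-null organoid library, and Irx5 was number 3 of these by mean level, at 83.0 CPM. The 8846 include genes without a count in any library, which lowers this share.

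Sorted ISCs showed Irx5 at lower levels. Irx5 had 22.6, 17.0 and 16.9 CPM in duodenal Apc-null ISCs (701, 558 and 357 counts), 5 counts in each Sec-Cre ileal ISC library (1.23 and 0.126 CPM), and no count in either WT ileal ISC library. The 3 duodenal libraries lay above both Sec-Cre ileal libraries, which lay above both WT libraries. Of the 8448 genes without a count in WT ileal ISCs, 1.88% had at least 1 CPM in every duodenal library and 0.651% in both Sec-Cre ileal libraries. The 8448 likewise include genes without a count in any library. Per kilobase of exon, the mean Irx5 level fell in the order ISC-Cre organoids (31.5 CPM per kb), Sec-Cre organoids (21.5), duodenal Apc-null ISCs (6.03) and Sec-Cre ileal ISCs (0.217). Neighbours in this order had separate ranges except for the organoid pair at its top. In bulk samples like these, fewer cells that express a gene and less RNA per cell cannot be told apart.

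**Figure D1:**
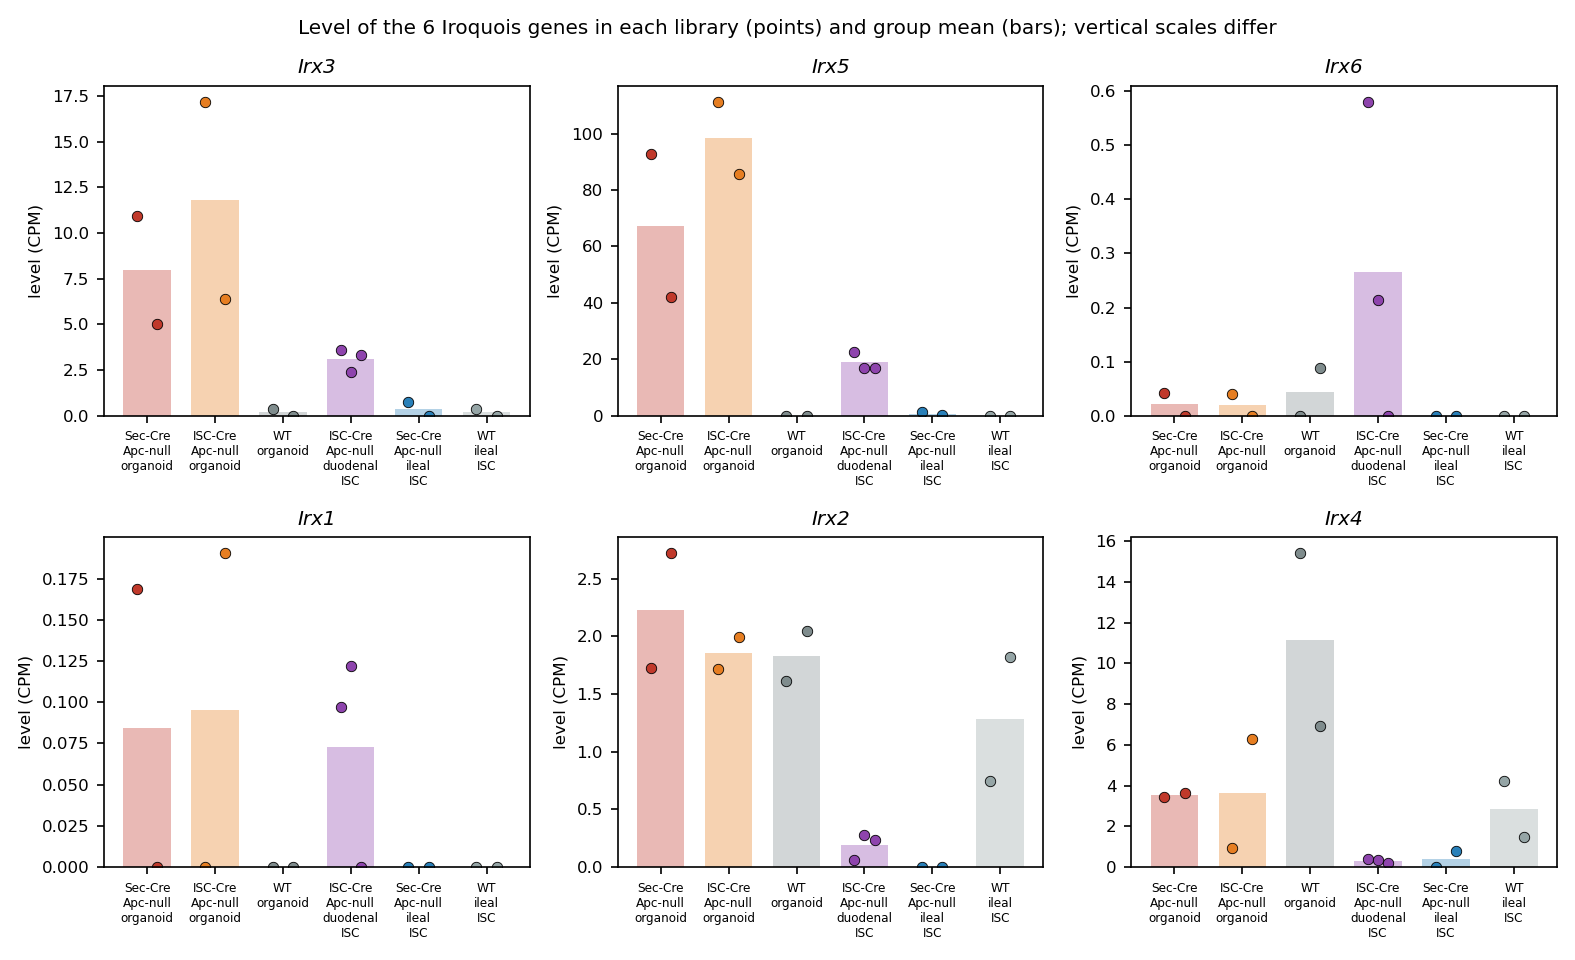
Levels of the 6 Iroquois genes in CPM, by group, on a scale of its own for each gene. Points are libraries and bars are group means, and Irx5 reads 42.1 to 111 CPM in the 4 Apc-null organoid libraries and 0 in all 4 WT libraries.

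Irx3, a factor of neural tube patterning and of the cardiac conduction system in the same cluster, was also scarce in WT libraries and higher in Apc-null organoids. It lies at chr8:91798525-91802067 on the minus strand, and its start is 555558 bases from that of Irx5. Irx3 had 10.9 and 5.01 CPM in Sec-Cre organoids (259 and 127 counts) and 17.2 and 6.38 CPM in ISC-Cre organoids (430 and 134 counts), against 0.352 and 0 CPM in WT organoids. Every Apc-null organoid library was above both WT libraries, whose 5 reads all came from replicate 1. The log2 fold change was 5.69 in Sec-Cre and 6.28 in ISC-Cre organoids against WT, and 4.43 and 5.02 when WT replicate 2, which had no read, was left out.

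In sorted cells Irx3 had 3.61, 2.38 and 3.31 CPM in duodenal Apc-null ISCs, 0.739 and 0 CPM in Sec-Cre ileal ISCs, and 0.372 and 0 CPM in WT ileal ISCs. All duodenal values were above all ileal values, while the ileal groups, with 3 and 6 reads in all, overlapped. Per kilobase, Irx3 averaged 4.27 CPM in ISC-Cre organoids, 2.89 in Sec-Cre organoids and 1.12 in duodenal ISCs, in each case below Irx5 in the same group.

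Irx6, expressed in retinal bipolar cells, is the remaining IrxB gene, at chr8:92674288-92680956 on the plus strand, with its start 316663 bases from that of Irx5. It stayed near the limit of detection, with 1 and 0 reads in Sec-Cre organoids and 1 and 0 in ISC-Cre organoids, against 0 and 2 in WT organoids. Duodenal Apc-null ISCs had 18, 7 and 0 reads (0.581, 0.214 and 0 CPM), and no ileal ISC library had any. Its levels overlapped between all groups that held a read.

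The long non-coding RNA gene Crnde, known from human colorectal tumours, starts 1505 bases from the start of Irx5 and runs the other way. It is not a member of the family and was not used to choose it. Crnde had 11.7 and 5.56 CPM in Sec-Cre organoids and 12.0 and 11.8 CPM in ISC-Cre organoids, against 0 and 0.0444 CPM in WT organoids, where it had 1 read in all. It rose in both comparisons, with a pooled count ratio of 312 (95% counting interval 55.7 to 12364) and an adjusted p of 0.000364 for Sec-Cre, and of 439 (78.4 to 17367) and 0.000235 for ISC-Cre (edgeR quasi-likelihood test, Benjamini-Hochberg adjustment over all genes). Both comparisons use the same WT libraries. Crnde passed the filter on low counts through the Apc-null libraries alone, so its direction was set by the filter.

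Crnde had 5.20, 3.05 and 0.898 CPM in duodenal Apc-null ISCs, 0 and 0.502 CPM in Sec-Cre ileal ISCs, and no read in WT ileal ISCs. Duodenal levels were above those of both ileal groups. In the ISC fit Crnde passed the filter through the duodenal libraries alone, which set its direction in comparisons with them. The rise over WT ileal ISCs was at least 36.5-fold (adjusted p = 0.0198), and its adjusted p was 0.0589 to 0.0993 when either WT library, duodenal replicate 1 or duodenal replicate 2 was left out. Crnde did not pass the test between duodenal and Sec-Cre ileal ISCs (log2 difference 3.14 ± 1.22 SE, adjusted p = 0.0746) or between Sec-Cre and WT ileal ISCs (adjusted p = 0.102). The fit of all 13 libraries called both (0.0207 and 0.0405), and DESeq2 called the comparison of duodenal with Sec-Cre ileal ISCs (0.0342).

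**Figure D2:**
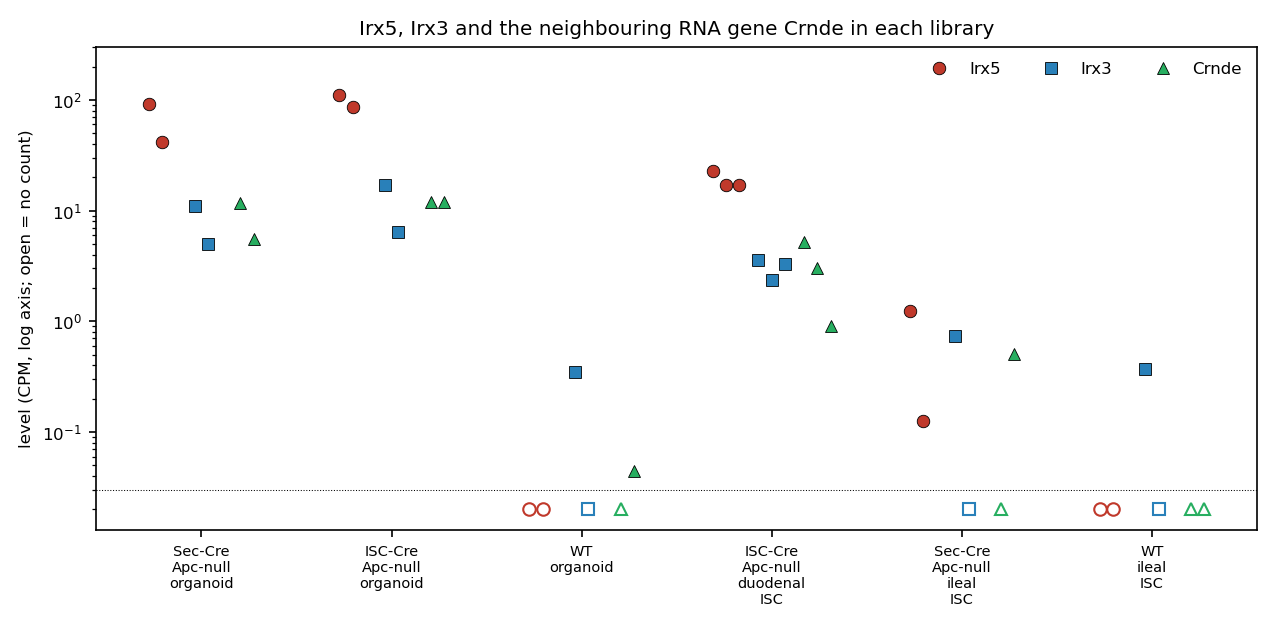
CPM of Irx5, Irx3 and Crnde in each library on a log axis, with open symbols for no read. In the 4 Apc-null organoid libraries Irx3 reads 5.01 to 17.2 CPM and Crnde 5.56 to 12.0 CPM, and Irx5 has no read in any WT library.

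The strand-specific duodenal libraries showed which strand the reads came from. Of 1616 Irx5 reads 99.1% were on the sense strand (95% exact binomial interval 98.6% to 99.5%), as were 99.3% of 280 Crnde reads. Irx3 had 96.5% of 260 reads in sense (93.5% to 98.4%). An annotated antisense gene, Irx3os, overlaps Irx3 and was not analysed here; in the organoid and ileal libraries, which keep no strand, its reads cannot be told apart from those of Irx3. Intervals cover counting error only.

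Promoters are shown for Irx3 and Crnde, the genes of the locus with an entry that were present together with Irx5 after Apc loss; Irx1, Irx5 and Irx6 are named only. The sequences are the 250 bases before the RefSeq start (GRCm38.p6), read on the strand of the gene, at chr8:91801655-91801904 for Irx3 and chr8:92356121-92356370 for Crnde, both minus strand. The GENCODE start of Irx3, at 91802067, differs from the RefSeq start. The Irx3 stretch lies inside the GENCODE gene, so bases before that other start were not searched.
Irx3: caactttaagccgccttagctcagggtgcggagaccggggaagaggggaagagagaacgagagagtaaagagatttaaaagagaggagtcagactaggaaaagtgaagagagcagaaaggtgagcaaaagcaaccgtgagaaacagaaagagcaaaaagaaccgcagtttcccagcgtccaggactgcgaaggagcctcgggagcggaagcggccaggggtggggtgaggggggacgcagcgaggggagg
Crnde: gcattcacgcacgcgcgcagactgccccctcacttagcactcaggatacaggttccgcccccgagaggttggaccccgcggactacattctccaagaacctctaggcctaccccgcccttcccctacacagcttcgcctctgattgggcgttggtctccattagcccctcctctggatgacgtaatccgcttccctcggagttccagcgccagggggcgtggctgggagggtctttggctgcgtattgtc
Neither held a match on either strand to the TCF/LEF word CTTTGAT or to its variants that end in AA, TT or TA, of which 14.8% of 32851 promoters of this length hold at least 1. Neither held the Iroquois palindrome ACANNTGT, which 6.31% of promoters hold. The same searches found no match in the promoters of Irx2 and Irx4. The GC content was 56% for Irx3, 62% for Crnde, 68.4% for Irx2 and 68.8% for Irx4, against a median of 52.4% over all promoters.

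Other genes around the IrxB cluster did not all move with Irx5. Of 18 counted genes that lie within 1 Mb of an IrxB member, 14 were tested in organoids. In Sec-Cre against WT organoids 3 rose (Crnde, Mmp2 and Rpgrip1l) and 6 fell, while 33% of all genes tested passed. In ISC-Cre against WT organoids 4 rose (Crnde, Mmp2, Rpgrip1l and Lpcat2) and 6 fell, while 37.8% of all genes passed. Genes nearly absent from WT or from Apc-null organoids, such as Crnde, Mmp2 and Ces1f, passed the filter through the other libraries alone. Their direction was set by the filter. The 6 that fell were the carboxylesterases Ces1b, Ces1c, Ces1d, Ces1e, Ces1f and Ces1g, close copies between which reads may be split. Ces1f averaged 0.0422 CPM in Sec-Cre organoids and 0.160 CPM in ISC-Cre organoids, against 66.7 CPM in WT organoids. Enterocytes express carboxylesterases, and summed enterocyte markers were 39.9 to 49.9 CPM in Sec-Cre organoids and 32.6 to 39.7 CPM in ISC-Cre organoids, against 3198 to 4710 CPM in WT organoids; their part in the result was not tested. Mmp2 and Rpgrip1l are not secure in the Sec-Cre comparison, since Mmp2 missed the threshold whichever of the 4 libraries was left out (adjusted p up to 0.173) and Rpgrip1l in 3 of 4 cases. Fto, whose introns in human hold enhancers of IRX3, averaged 80.2 CPM in Sec-Cre organoids and 82.7 CPM in ISC-Cre organoids and 64.2 CPM in WT organoids, and passed in neither comparison.

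**Figure D3:**
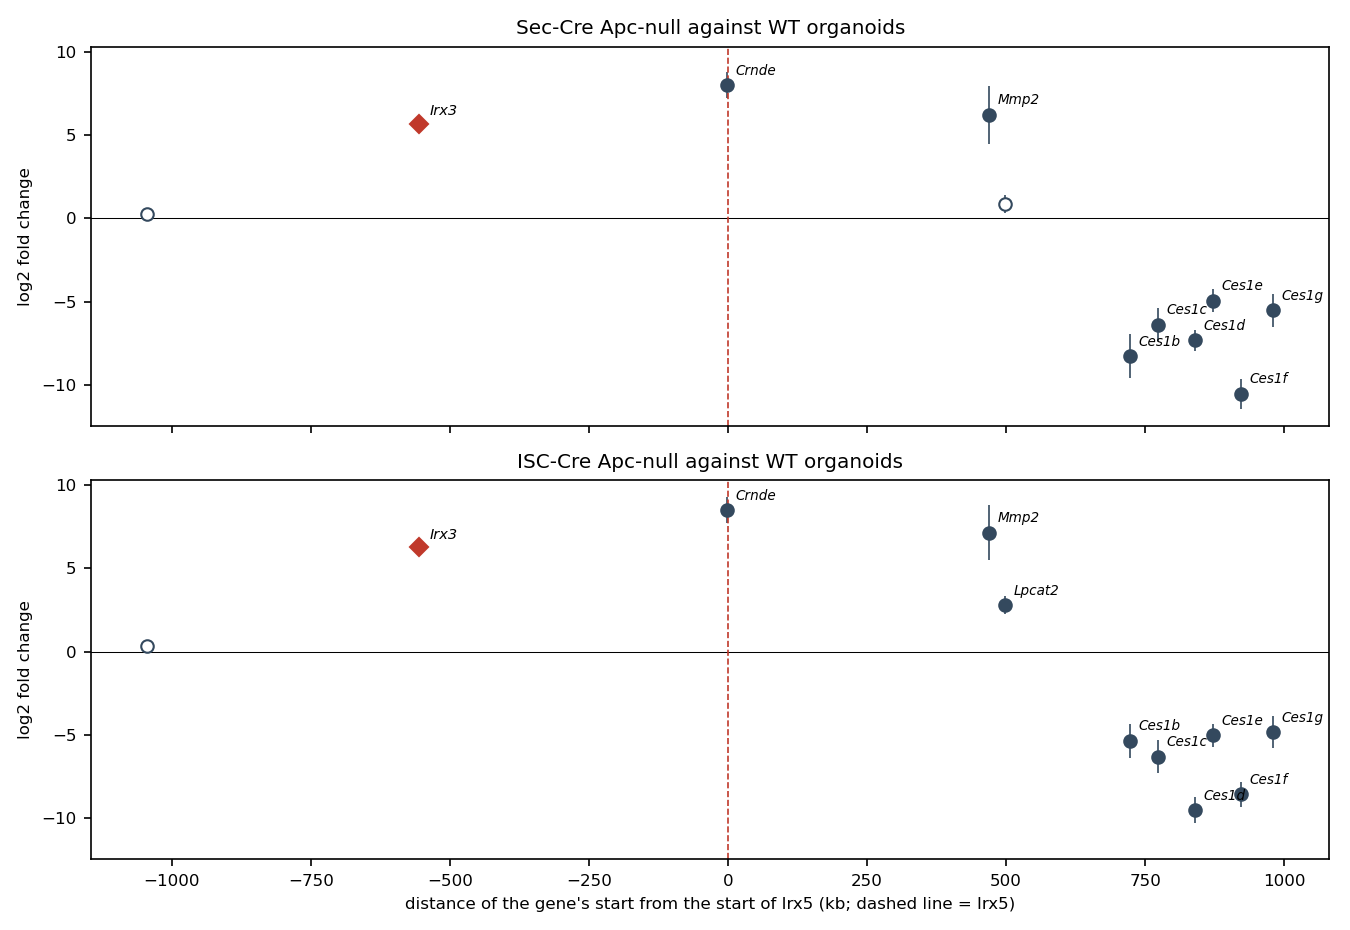
Log2 fold change of tested genes that lie at least in part within 1 Mb of Irx5, in Sec-Cre (top) and ISC-Cre (bottom) Apc-null against WT organoids, by distance of their start from that of Irx5 in kb. Bars are SE and filled points have an adjusted p under 0.05; Irx3 is a diamond without error, the dashed line marks Irx5, and the fold of Mmp2 stands against WT libraries without a read and so depends on the prior count.

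The IrxA genes differed from Irx5. Irx4, which sets ventricular identity in the heart, was highest in WT organoids. It lies at chr13:73260479-73269608 on the plus strand. Irx4 had 3.46 and 3.63 CPM in Sec-Cre organoids and 0.960 and 6.28 CPM in ISC-Cre organoids, against 15.4 and 6.93 CPM in WT organoids. Both WT libraries were above all 4 Apc-null libraries, and the ISC-Cre replicates differed from each other more than the group means of Sec-Cre and ISC-Cre did. The log2 fold change against WT was -1.70 for Sec-Cre and -1.68 for ISC-Cre organoids. It was -1.01 for Sec-Cre without WT replicate 1 and -3.54 for ISC-Cre without ISC-Cre replicate 2.

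In sorted cells Irx4 had 0.387, 0.366 and 0.189 CPM in duodenal Apc-null ISCs and 0 and 0.803 CPM in Sec-Cre ileal ISCs, against 4.21 and 1.47 CPM in WT ileal ISCs. Both WT libraries again held the highest values. The Irx4 count of Sec-Cre ileal ISCs came entirely from replicate 2, with 32 reads.

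Irx2, a factor described in hindbrain and limb development, overlapped between all organoid groups. It lies at chr13:72628820-72634198 on the plus strand. Irx2 had 1.73 and 2.72 CPM in Sec-Cre organoids, 1.72 and 2.00 CPM in ISC-Cre organoids and 1.62 and 2.04 CPM in WT organoids. Against WT the log2 fold change was 0.23 in Sec-Cre and -0.02 in ISC-Cre organoids. In sorted cells it had 0.0645, 0.275 and 0.236 CPM in duodenal Apc-null ISCs and no read in Sec-Cre ileal ISCs, against 0.743 and 1.82 CPM in WT ileal ISCs. WT ileal ISCs were above both Apc-null groups without overlap.

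Irx1, which acts in lung and digit development, is at chr13:71957921-71963723 on the minus strand and was close to absent. It had 4 and 0 reads in Sec-Cre organoids, 0 and 4 in ISC-Cre organoids and 0 in WT organoids, then 3, 4 and 0 in duodenal ISCs and 0 in the 4 ileal libraries. Like Irx5 it had no read in WT organoids, but its highest level in any library was 0.190 CPM. Irx1 and Irx6 failed the filter on low counts, so that 4 of the 6 members entered the tests. In both comparisons with WT organoids 3 of these 4 did not overlap between the groups, Irx3 and Irx5 higher and Irx4 lower. Of all genes tested 71.3% did not overlap for Sec-Cre and 68.5% for ISC-Cre, in either direction. The separation of Irx5 was fixed by the rule that chose the family. Irx3 and Irx5 also passed the filter through the Apc-null libraries alone, which set their direction. The count of members is therefore a description.

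The driver comparison asked whether Apc loss through the secretory or the stem cell driver left different Iroquois levels in organoids. No member passed among the 4 tested (edgeR quasi-likelihood test), none had an unadjusted p under 0.05 and none was called by DESeq2, while 0.0422% of all genes passed. The log2 difference, Sec-Cre minus ISC-Cre, was -0.57 for Irx5 (95% interval -1.44 to 0.30), -0.59 for Irx3 (-2.28 to 1.09), -0.02 for Irx4 (-1.82 to 1.77) and 0.24 for Irx2 (-0.93 to 1.42). All 4 adjusted p-values were 1. The groups of 2 overlapped for each member, where 39.6% of all genes did not, and each interval reached beyond 1 log2 unit on at least 1 side.

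Duodenal Apc-null ISCs were then set against WT ileal ISCs. In the ISC fit Irx5 and Irx3 passed the filter on low counts through the duodenal libraries alone, and Irx2 through the WT libraries alone. The direction of these members here was therefore set by the filter. Irx5 rose by at least 225-fold (edgeR, adjusted p = 0.00246), and was the only 1 of the 4 tested members to pass, while 19.1% of all genes did. It passed with each library left out in turn (adjusted p 0.00889 to 0.0178). Irx3 was higher by 4.09 ± 1.67 on the log2 scale (SE, adjusted p = 0.124), Irx4 was lower at -3.13 ± 1.02 (adjusted p = 0.0646) and Irx2 at -2.73 ± 1.01 (adjusted p = 0.103), and these 3 did not pass. All 4 members had an unadjusted p under 0.05, and none of the 4 overlapped between the groups, 2 higher and 2 lower, where 61.3% of all genes did not overlap. DESeq2 called Irx3 (adjusted p = 0.0415) and Irx4 (adjusted p = 0.0314) besides Irx5, and the edgeR fit of these 2 groups alone called Irx3 (0.0323) and Irx4 (0.0216) as well. The fit of all 13 libraries called Irx2 (0.0233), Irx3 (0.0496) and Irx4 (0.0214).

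Against Sec-Cre ileal ISCs, the other Apc-null ISCs, Irx5 was higher in duodenal ISCs by 5.53 ± 1.02 on the log2 scale (SE, interval 3.17 to 7.88, adjusted p = 0.00484). It was again the only 1 of 4 members to pass, while 40.8% of all genes did, and it passed whichever library was left out. The difference was 7.21 without Sec-Cre replicate 1 and 3.93 without Sec-Cre replicate 2. Irx5 and Irx3 entered this comparison through the duodenal libraries alone, so that the filter set their direction here too. Irx3 averaged 3.10 CPM in duodenal and 0.369 CPM in Sec-Cre ileal ISCs, where it had 3 reads, all in the shallower replicate 1. The fitted log2 difference was 4.05 ± 1.90 and the ratio of pooled counts 44.8 (counting interval 15.2 to 219), so the size of the difference depends on how the libraries are weighted. It did not pass (adjusted p = 0.119), but did without Sec-Cre replicate 1 (0.0179) and in the fit of all 13 libraries (0.0448). Irx2 did not pass (adjusted p = 0.0714; 0.0223 in the fit of all 13 libraries), nor did Irx4 (-0.68 ± 1.04, adjusted p = 0.630), whose sign turned without Sec-Cre replicate 2, the library that held all of that group's Irx4 reads. Without overlap were 3 of 4 members, all higher, and 62.5% of all genes in either direction.

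Between Sec-Cre and WT ileal ISCs only Irx2 passed among the 4, while 16.6% of all genes did. This gene entered the ISC fit through the WT ileal libraries alone, so its direction was set by the filter on low counts. Irx2 was at least 18.8-fold lower in Sec-Cre ileal ISCs (adjusted p = 0.0344), but missed the threshold when any 1 of the 4 libraries was left out (0.0501 to 0.155). Irx5, with 10 reads against 0, was at least 8.11-fold higher and did not pass (adjusted p = 0.0733). It passed without Sec-Cre replicate 2 (0.00986), with DESeq2 (0.00811) and with no filter on low counts (0.0458). Irx4 was at -2.45 ± 1.17 (adjusted p = 0.179) and Irx3 had an adjusted p of 1. Without overlap were 3 of 4 members, 1 higher and 2 lower, and 60.2% of all genes. Each pair of these ISC comparisons shares a group of libraries. The high unmapped share and enterocyte markers of both Sec-Cre ileal libraries, and the Paneth cell markers of replicate 1, go with every difference that involves these libraries, and their part in the result was not tested.

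Culture and animal were compared for Sec-Cre and WT, with every library in the model. The Sec-Cre ISCs carry Lgr5DTR-GFP besides, and the Sec-Cre organoids do not. WT ISCs carry floxed Apc, Lgr5DTR-GFP and Rosa26tdTomato, while WT organoids have no further allele given. In this fit Irx3 passed the filter on low counts through Apc-null organoid and duodenal libraries alone. Its organoid values are also among those by which the family was chosen. The Irx3 difference below is therefore a description, whatever its p-value. In Sec-Cre organoids against Sec-Cre ileal ISCs, Irx2 rose by at least 32.6-fold (adjusted p = 0.000972) and passed with every library left out in turn. Irx3 averaged 7.97 CPM in Sec-Cre organoids against 0.369 CPM in Sec-Cre ileal ISCs, a fitted log2 difference of 5.94 ± 1.79 (adjusted p = 0.0161) and a ratio of pooled counts of 115 (counting interval 39.1 to 561), but missed the threshold without Sec-Cre organoid replicate 1 (0.0679) or Sec-Cre ileal replicate 2 (0.109). Irx4 was 2.65 ± 1.03 higher on the log2 scale (adjusted p = 0.0503), and passed without Sec-Cre ileal replicate 2 (0.0383) and with DESeq2 (0.0203), which called all 3 members. With edgeR 2 of the 3 members tested here passed, while 48.6% of all genes did; Irx5 is given by its levels alone, 67.4 ± 35.8 CPM in Sec-Cre organoids against 0.678 ± 0.782 CPM in Sec-Cre ileal ISCs (SD, n = 2 each). All 4 were higher in Sec-Cre organoids without overlap, where 73.9% of all genes did not overlap. Irx5 is among these 4, and its organoid level was used to choose the family, so this count is a description. Markers differed as well between Sec-Cre organoids and Sec-Cre ileal ISCs: all 9 enterocyte, all 8 Paneth and all 6 tested tuft cell markers were lower in the organoids, and their part in the result was not tested. In WT organoids against WT ileal ISCs none of Irx2, Irx3 and Irx4 passed with edgeR or DESeq2 or had an unadjusted p under 0.05, while 3.87% of all genes passed; Irx4 was at 1.98 ± 0.95 (interval -0.08 to 4.03) and alone did not overlap, where 53.3% of all genes did not.

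Other TALE genes, from a list of 11, were measured beside the family. In Sec-Cre against WT organoids 3 of 10 tested rose and 0 fell (median log2 fold change 0.49, against 0.05 over all genes), a share close to the 33% of all genes that passed. Tgif1, a corepressor of TGF-beta signalling, had 130.0 and 113 CPM in Sec-Cre organoids and 148 and 129.9 CPM in ISC-Cre organoids, against 63.9 and 56.8 CPM in WT organoids. On the log2 scale it rose by 0.96 ± 0.15 for Sec-Cre (adjusted p = 0.00267) and by 1.17 ± 0.15 for ISC-Cre (adjusted p = 0.000977). Its levels did not overlap between Apc-null and WT organoids.

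Meis1 and Meis2, cofactors of Hox proteins, had no read in WT organoids. They passed the filter on low counts through the Apc-null libraries alone, so their direction was set by the filter. Both count among the TALE genes that rose in organoids. Meis1 had 1.44 and 1.46 CPM in Sec-Cre organoids and was at least 17.7-fold higher there (adjusted p = 0.00787), and at least 11.6-fold higher in ISC-Cre organoids (adjusted p = 0.00994; 0.0553 without ISC-Cre replicate 1). Meis2 had 0.760 and 1.30 CPM in Sec-Cre organoids, where it was at least 12.6-fold higher (adjusted p = 0.00931), and 3.16 and 1.67 CPM in ISC-Cre organoids, where it was at least 29.5-fold higher (adjusted p = 0.00355). In ISC-Cre against WT organoids 4 of 10 tested genes rose and 1 fell (median 0.57, against 0.03 over all genes), where 37.8% of all genes passed, and 2 rose and 0 fell without ISC-Cre replicate 1.

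In duodenal Apc-null against WT ileal ISCs 3 of 11 TALE genes rose and 0 fell (median 2.25, against 0.07 over all genes), where 19.1% of all genes passed. Tgif2, a corepressor like Tgif1, averaged 41.7 ± 4.86 CPM in duodenal ISCs (SD, n = 3) against 4.48 ± 1.26 CPM in WT ileal ISCs (SD, n = 2), a log2 fold change of 3.21 ± 0.38 (SE, adjusted p = 0.00109). Meis2 had 19.3, 19.5 and 36.0 CPM in duodenal ISCs against no read in WT ileal ISCs, at least 298-fold higher (adjusted p = 0.00196). In the ISC fit Meis2 passed the filter through Apc-null libraries alone, which set its direction against WT. Pbx3 also passed (adjusted p = 0.0377), and did not when any 1 of the 5 libraries was left out (up to 0.236). In Sec-Cre against WT ileal ISCs 1 of 11 rose, Meis2, with 7.14 and 1.41 CPM in Sec-Cre ileal ISCs and no read in WT ileal ISCs (adjusted p = 0.00985), none passed when either WT library was left out, and 3 rose without Sec-Cre replicate 2. Between duodenal and Sec-Cre ileal ISCs 2 rose (Tgif2 and Meis2) and Meis3 fell, and 4 rose and 0 fell without Sec-Cre replicate 1, while 1 rose without duodenal replicate 2 or Sec-Cre replicate 2. Of these Tgif2 alone passed with each library left out (3.61 ± 0.39, adjusted p at most 0.00296).

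**Figure D4:**
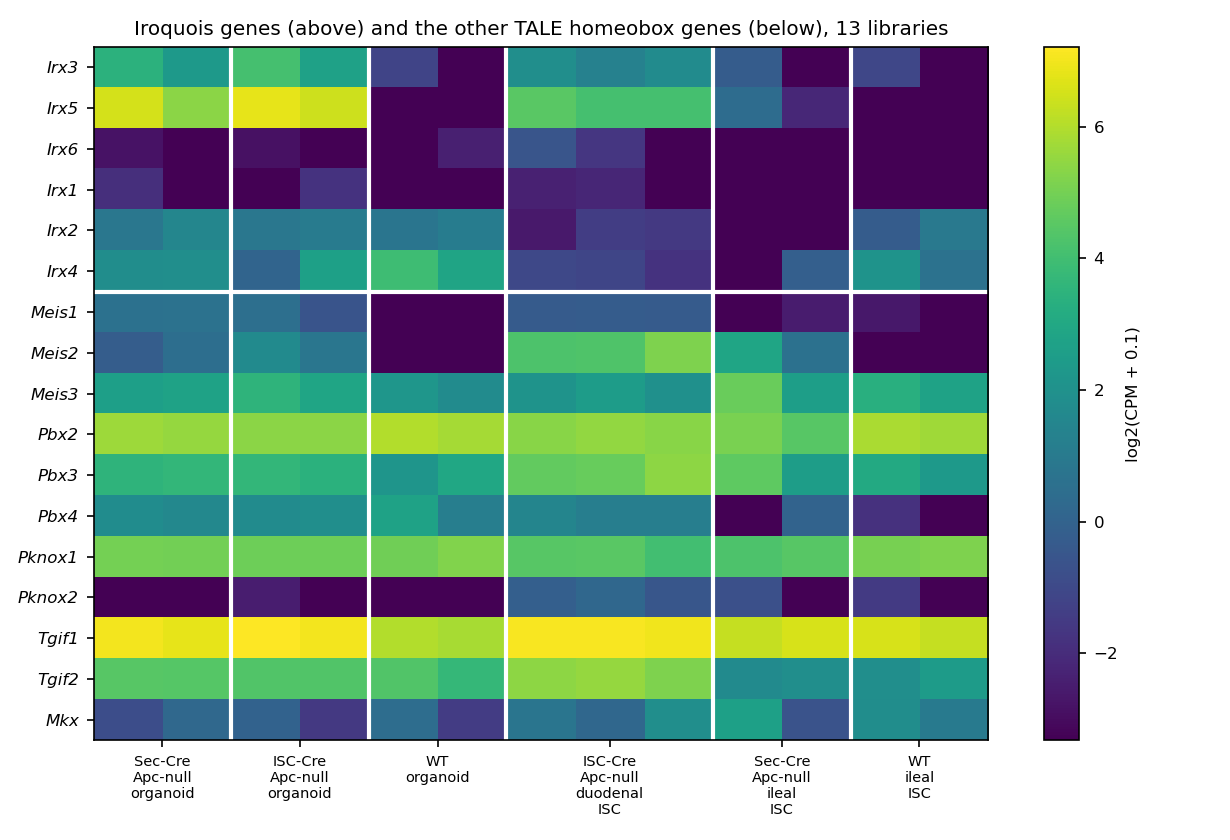
Levels of the 6 Iroquois genes (upper rows) and 11 other TALE genes (lower rows) in each library, as log2(CPM + 0.1). Brighter cells are higher: Irx5 is bright in the Apc-null organoids, intermediate in duodenal Apc-null ISCs and at the dark floor in all 4 WT libraries.

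Of 8 genes known as Iroquois partners or targets, mostly from heart and fat, 3 passed the filter on low counts in organoids. These had almost no read in WT organoids and passed it through the Apc-null libraries alone, so their direction was set by the filter and is no result about the list. Gja1, a gap junction gene, had means of 3.09 ± 2.16 CPM in organoids of Sec-Cre and 1.89 ± 1.09 CPM in organoids of ISC-Cre, against 0.0222 ± 0.0314 CPM in WT organoids (SD, n = 2 each). Gja5 and Gata3 averaged under 1 CPM in every organoid group.

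TGF-beta genes, from a list of 20, split in direction. In organoids 10 rose and 2 fell in each comparison (median 0.44 for Sec-Cre and 0.51 for ISC-Cre, against 0.05 and 0.03 over all genes), where 33% and 37.8% of all genes passed in either direction. The latent TGF-beta binding protein gene Ltbp1 averaged 11.8 CPM in Sec-Cre organoids and 20.1 CPM in ISC-Cre organoids, against 0.124 CPM in WT organoids. The ligand gene Tgfb2 averaged 17.5 CPM in Sec-Cre organoids and 33.6 CPM in ISC-Cre organoids, against 0.111 CPM in WT organoids, and Ltbp3 averaged 9.94 CPM in Sec-Cre organoids and 19.8 CPM in ISC-Cre organoids, against 0.0352 CPM in WT organoids. Ltbp1, Tgfb2 and Ltbp3 passed the filter on low counts through the Apc-null libraries alone, so their direction was set by the filter. In duodenal Apc-null against WT ileal ISCs 6 rose and 2 fell (median 0.97, against 0.07 over all genes, of which 19.1% passed), but 2 rose and 1 fell without WT replicate 1 and 2 rose and 2 fell without WT replicate 2. Cdkn2b, a cell cycle inhibitor induced by TGF-beta, averaged 6.17 CPM in duodenal ISCs and 136 CPM in Sec-Cre ileal ISCs, against 33.7 CPM in WT ileal ISCs. In Sec-Cre against WT ileal ISCs 5 rose and 6 fell, and 0 rose and 1 fell when either WT library was left out (median -0.31, against 0 over all genes, of which 16.6% passed).

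Wnt targets were followed in a list of 20. Among them Lef1 and Wif1 were nearly absent from WT ileal ISCs, with means of 0.248 and 0.217 CPM. In the ISC fit they passed the filter on low counts through Apc-null libraries, so their direction against WT was set by the filter. Lef1 is among those counted below as higher in Sec-Cre than in WT ileal ISCs. Counts were 15 higher and 0 lower in Sec-Cre organoids and 15 higher and 2 lower in ISC-Cre organoids, both against WT organoids, with medians of 1.46 and 1.67, against 0.05 and 0.03 over all genes, of which 33% and 37.8% passed in either direction. In duodenal Apc-null ISCs 14 rose and 1 fell against WT ileal ISCs (median 1.98, against 0.07 over all genes, of which 19.1% passed; 8 and 0 without WT replicate 2, 9 and 0 without WT replicate 1). Against Sec-Cre ileal ISCs 16 rose and 0 fell (median 2.62, against 0.12 over all genes, of which 40.8% passed). In Sec-Cre against WT ileal ISCs 4 rose and 5 fell, but 1 and 1 without WT replicate 1 and 0 and 0 without WT replicate 2 (median -0.51, against 0 over all genes, of which 16.6% passed).

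Across the 13 libraries, which share group and material, log2 CPM of Irx5 correlated with that of Crnde (Pearson r = 0.92) and Irx3 (0.89), and not positively with that of Irx4 (-0.25). Correlations with Irx5 include the organoid values by which the family was chosen and are a description only. Irx2 and Irx4 had r = 0.78. Among the genes most like Irx5, of 13230 candidates, were Shisa4 (0.99), Myh10 (0.99), Psapl1 (0.98) and Fam163a (0.98). Among those most like Irx3 were Cers3 (0.95), Pcdh17 (0.95), Wipf3 (0.94) and Dtx3 (0.94). For Irx4 the 5 most alike were Idi1, Knstrn, Dhcr7, Tbc1d31 and Gnpat (0.96 to 0.95), and for Irx2 Bard1, Plk4, Tpx2, Hnrnpr and Pabpc4 (0.97 to 0.96).

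Iroquois genes are also expressed in mesenchymal cells, so markers of other cell types were summed in each library. The 11 fibroblast markers summed to 277 to 597 CPM in Sec-Cre organoids and 538 to 712 CPM in ISC-Cre organoids, against 13.6 to 15.7 CPM in WT organoids. Nearly all of this was Vim, at 274 to 591 CPM in Sec-Cre organoids and 527 to 705 CPM in ISC-Cre organoids, against 9.99 to 11.9 CPM in WT organoids. Of the 11 markers, 8 had no read in WT organoids, while Lum alone had none in Apc-null organoids. Among the 7 tested, 3 rose and 1 fell in Sec-Cre organoids and 4 rose and 1 fell in ISC-Cre organoids. Of all genes 33% and 37.8% passed in either direction. Col1a1, Dcn, Pdgfra and Acta2 had no WT read and passed the filter through the Apc-null libraries alone, so their direction was set by it. Vim, Dcn and Pdgfra rose in both and Pdgfrb fell in both, while Acta2 passed for ISC-Cre (adjusted p = 0.0114) and not for Sec-Cre (0.0606), and the drivers themselves did not differ past the threshold (adjusted p = 0.984). Pdgfra had 0.971 and 0.750 CPM in Sec-Cre organoids and 1.000 and 1.62 CPM in ISC-Cre organoids, and Acta2 had 0.802 and 0.631 CPM in Sec-Cre organoids and 8.56 and 0.857 CPM in ISC-Cre organoids, against no read of either in WT organoids. The collagen gene Col1a1 was at most 1.39 CPM and Dcn at most 0.907 CPM in any Apc-null organoid library. In sorted cells the fibroblast sum was 331 to 614 CPM in duodenal Apc-null ISCs and 3.20 to 6.07 CPM in Sec-Cre ileal ISCs, against 14.3 to 20.3 CPM in WT ileal ISCs. Duodenal libraries held Col1a1 at up to 19.3 CPM, and 6 endothelial markers summed to 73.8 to 147 CPM there, against at most 28.4 CPM in any other library. The fibroblast sum was higher, like Irx5, in Apc-null than in WT organoids and in duodenal than in WT ileal ISCs. It was lower in Sec-Cre than in WT ileal ISCs, where Irx5 had 10 reads against 0. The endothelial sum was highest in the duodenal libraries, whose Irx5 level lay below that of Apc-null organoids. The part of these cells in the result was not tested. The 15 enteroendocrine markers moved the other way, with 64.3 to 84.2 CPM in Sec-Cre organoids and 68.5 to 153 CPM in ISC-Cre organoids, against 841 to 989 CPM in WT organoids.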

How the data were processed

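Bulk RNA was sequenced in 13 libraries of organoids and sorted ISCs. The deposited values were raw counts of reads per gene, 1 table per library in the layout of STAR gene counts. STAR, DESeq2 1.22.2 and mm10 are named per the submitters' processing notes, and the annotation is not given in the sources used here. The both-strand column was used. The 4 summary lines, 22.3% to 84.5% of reads, were left out of library sizes. A kit that keeps no strand is named per the labels' protocols, though the duodenal libraries were strand-specific.

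Members and lists were chosen with earlier results of these data known. Symbols matched GENCODE vM21 for 22750 genes (94.6%). Counts were tested with the edgeR 4.0.16 quasi-likelihood test in R 4.3.3 (limma 3.58.1): filterByExpr with a minimum count of 10, TMM scaling, prior count 0.125, Benjamini-Hochberg adjusted p-values over all genes and a threshold of 0.05. Organoids were fitted together (6 libraries, 14208 genes, 3 residual degrees of freedom), as were ISCs (7 libraries, 14577 genes, 4), and all 13 libraries for organoids against ISCs (15208 genes, 7). CPM used TMM library sizes over 13 libraries. A fold against a group without a read is a bound from 3 counts over that group. Alternatives were RLE scaling, DESeq2 1.42.0, no filter, other sets of libraries, a replicate block, each library left out and the sense strand. Replicates differed beyond sampling noise (chi-square over its degrees of freedom, 18.0 to 1572). Named genes were all members, called neighbours within 1 Mb, the 3 smallest adjusted p-values of each list with at least 3 calls (otherwise all called) and the 5 genes most correlated with each member of at least 1 CPM. Some genes that this rule names are not reported here, and the list of TALE genes was counted without 1 of them. Python 3.11.15, pandas 2.3.3 and scipy 1.17.1 served annotation and plots.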

Additional observations from a re-analysis of the deposited data

Results flagged for a closer look

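Reads on the strand opposite to the gene were seen for Irx3 and Irx5 in the strand-specific duodenal Apc-null ISC libraries, a column that no comparison uses, and are listed because they exceeded the limit of 3 counts that a count of 0 allows. Irx3 had 4 such reads in replicate 1 and 4 in replicate 2, of 112 and 78 reads. Irx5 had 5 in replicate 1 and 6 in replicate 3, of 701 and 357 reads. Over all genes 1.15%, 1.16% and 1.5% of reads lay on that strand in replicates 1, 2 and 3. The Irx5 shares, 0.713% in replicate 1 and 1.68% in replicate 3, are close to that background, and those of Irx3, 3.57% in replicate 1 and 5.13% in replicate 2, are above it but rest on 4 reads each.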

How the results depend on the processing

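Of 315 recomputed Iroquois values, 273 kept their direction and side of the threshold or moved by less than 1 SD, 16 newly passed, 9 no longer passed, 17 untested organoid values moved and 0 called values reversed. The Irx5 calls in duodenal ISCs held in every alternative run. Counts of called genes over the whole table varied more. In 1 fit of all 13 libraries they were 2477 for Sec-Cre against WT organoids (4685 as reported), 2997 for ISC-Cre against WT organoids (5377), 1 for Sec-Cre against ISC-Cre organoids (6), 4291 for Sec-Cre against WT ileal ISCs (2417) and 4426 for duodenal against WT ileal ISCs (2783). DESeq2 called 72, 27.8% of them higher against 0% with edgeR, for Sec-Cre against ISC-Cre organoids, 3790 for Sec-Cre against WT ileal ISCs and 1194 for WT organoids against WT ileal ISCs (589). With no filter Sec-Cre against ISC-Cre organoids gave 24. Fits of the compared groups alone gave 11 for that comparison, 1336 for Sec-Cre against WT ileal ISCs and 1026 for WT organoids against WT ileal ISCs. Leaving out each library gave 2608 to 5101 for Sec-Cre and 3194 to 5542 for ISC-Cre against WT organoids, 0 to 5 for Sec-Cre against ISC-Cre organoids, 153 to 3183 for Sec-Cre against WT ileal ISCs and 937 to 2226 for duodenal against WT ileal ISCs. It gave 4091 to 5909 for duodenal against Sec-Cre ileal ISCs (5950), 5059 to 7420 for Sec-Cre organoids against Sec-Cre ileal ISCs (7389) and 162 to 355 for WT organoids against WT ileal ISCs. Where this left 1 sample in a group, that sample is assumed to vary like the other groups. Same-numbered replicates did not deviate together (correlations -0.098 to 0.073), so no pairing by number was seen. With so few replicates per group this cannot exclude pairing. With a replicate block the count for duodenal against WT ileal ISCs was 1671, and Irx2 in Sec-Cre against WT ileal ISCs (adjusted p = 0.0855) and Crnde in duodenal against WT ileal ISCs (0.0562) no longer passed. RLE scaling and the sense strand changed no call of a member. Reading the duodenal strand the other way would give 0.866% in sense for Irx5, 3.46% for Irx3, 6.25% for Irx2, 0.714% for Crnde and 0% for Irx1, Irx4 and Irx6. The cause of these changes was not tested. Irx1 and Irx6 failed the filter on low counts and were not tested.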
